A study of Mus musculus with 28 samples.

Results

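The 10 genes described here, *Vwf*, *Pecam1*, *Cdh5*, *Tie1*, *Tek*, *Kdr*, *Flt1*, *Emcn*, *Esam*, and *Cldn5*, are widely used to recognize endothelial cells. They were listed by name, by a rule that holds no measured value but that was written with earlier results of these data known, out of 56980 genes in a bulk RNA sequencing table, of which 12673 were tested, including all 10. The bulk data came from 25 mouse vessels, with 1 library per vessel: 7 contralateral jugular veins and the outflow vein of 8 early, 5 mid, and 5 late arteriovenous fistulas (AVFs), whose titles carry 3, 10, and 21, read here as days. Single-cell RNA sequencing added 1 library for each of the contralateral, early, and late conditions, every one a pool of vessels from male and female mice. The study's methods give harvest days that varied within each bulk group, most in the early one. The labels do not give these days by vessel, so the early AVFs need not be of 1 age. By the same methods, the single-cell early and late AVFs were taken on average some days later than the bulk AVFs of the same name, so the assays are not matched in time. All animals were C57BL/6 mice that had a 5/6 nephrectomy before the end of the jugular vein was joined to the side of the carotid artery, so the contralateral veins also came from nephrectomized animals. They are veins of the other side of the neck and not sham-operated vessels. The contralateral group held 5 female and 2 male mice and the early group 3 and 5, while the mid and late groups held 3 females and 2 males each.

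Endothelial cells line the lumen of every vessel and form the barrier between blood and wall. They are held together by adherens and tight junctions, sense growth factors through receptor tyrosine kinases of the VEGF and angiopoietin pathways, and store hemostatic proteins in secretory granules. In veins, this lining keeps blood from clotting and is the first layer exposed to arterial flow after an AVF is made.

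Promoters are shown for 3 of the genes, because *Emcn* and *Flt1* were called lower in AVFs at all 3 time points while *Cldn5* was not, although *Flt1* lost some of these calls under other settings given with its values. Each sequence holds the 250 bases upstream of the transcript start, 5′ to 3′ on the strand of the gene, from RefSeq on GRCm38.p6. Capitals mark GGAA or its reverse complement TTCC, the core letters recognized by ETS factors, a family with known roles in endothelial transcription. The regions are chr3:137340828-137341077 on the plus strand for *Emcn*, chr5:147726012-147726261 on the minus strand for *Flt1*, and chr16:18776597-18776846 on the plus strand for *Cldn5*.
Emcn: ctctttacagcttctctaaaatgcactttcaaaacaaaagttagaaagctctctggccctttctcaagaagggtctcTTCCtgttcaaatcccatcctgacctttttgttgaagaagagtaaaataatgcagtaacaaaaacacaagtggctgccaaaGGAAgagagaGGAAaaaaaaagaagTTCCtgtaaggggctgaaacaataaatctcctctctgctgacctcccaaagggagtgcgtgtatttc
Flt1: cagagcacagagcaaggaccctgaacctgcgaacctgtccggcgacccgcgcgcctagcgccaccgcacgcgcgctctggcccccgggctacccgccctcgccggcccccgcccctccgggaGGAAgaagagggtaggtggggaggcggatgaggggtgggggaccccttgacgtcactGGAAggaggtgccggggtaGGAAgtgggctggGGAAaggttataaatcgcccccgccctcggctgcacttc
Cldn5: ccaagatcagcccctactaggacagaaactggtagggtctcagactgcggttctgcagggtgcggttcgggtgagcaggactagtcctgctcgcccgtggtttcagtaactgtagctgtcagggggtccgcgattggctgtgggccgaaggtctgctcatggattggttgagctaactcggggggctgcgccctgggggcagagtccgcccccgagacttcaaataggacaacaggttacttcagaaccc
The *Emcn* and *Flt1* windows each held 4 matches and the *Cldn5* window held 0. Among the other members with a RefSeq promoter, *Kdr*, also not called at any time point, had 4 matches, *Tie1* 7, and *Tek* 2. The remaining 4 members (*Vwf*, *Pecam1*, *Cdh5*, and *Esam*) had no promoter in the set used, although *Vwf* and *Esam* were called lower at all 3 time points. The 3 genes shown were picked by their calls, so their match counts do not test a link with the decrease. The letters are common: 93.4% of 32851 promoters of the same length held at least 1 match on either strand, with a median of 3. A match describes the letters of this window and does not show that a factor binds there.

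Total counts ranged from 20254173 to 67457501 per library. Contralateral veins were the least alike, with a median Spearman correlation between libraries of 0.678 across genes, against 0.867, 0.956, and 0.953 in the early, mid, and late groups. Levels are given as CPM, counts scaled to the library total after TMM normalization. Tissue from outside the vein was present in some AVFs. Early AVF 1 held a summed level of 14132 CPM of thyroid and parathyroid markers, against at most 78.6 CPM in the other early AVFs and 10.8 CPM in contralateral veins. Late AVF 19 held 5379 CPM and mid AVF 12 held 1637 CPM of the same markers. A gene was called when edgeR's quasi-likelihood test gave a Benjamini-Hochberg adjusted *p* under 0.01 over all tested genes and the fitted log2 fold change was 1 or more in size. The *p* values measure the spread between these vessels. Each SE was derived from the test, as the size of the log2 fold change divided by the square root of the F statistic. In bulk tissue, fewer endothelial cells and less RNA per endothelial cell cannot be told apart.

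In early AVFs 7 of the 10 members fell, 0 rose, and 3 (*Cdh5*, *Kdr*, and *Cldn5*) were not called, where 6.45% of all tested genes were called lower. The summed level of the members, to which *Vwf* contributed most on average in contralateral veins, was 2418 to 4755 CPM in contralateral veins (median 3100) and 406 to 803 CPM in early AVFs (median 680). Mid AVFs held 661 to 930 CPM (median 919) and late AVFs 790 to 1072 CPM (median 941). No AVF of any time point reached the sum of the lowest contralateral vein. The median early log2 fold change was −1.54 over the members and −0.0067 over all tested genes. The other comparisons with contralateral veins use the same 7 control veins and are not independent of this one. Mid AVFs were lower in 6 members (3.31% of tested genes) with a median of −1.31, against −0.10 over all tested genes. Late AVFs were lower in 5 members (2.85% of tested genes) with a median of −1.21, against −0.093 over all tested genes. When the 4 groups were tested together on the adjusted *p* alone, 8 members passed, all but *Kdr* and *Cldn5*, where 14.2% of tested genes did.

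**Figure D1:**
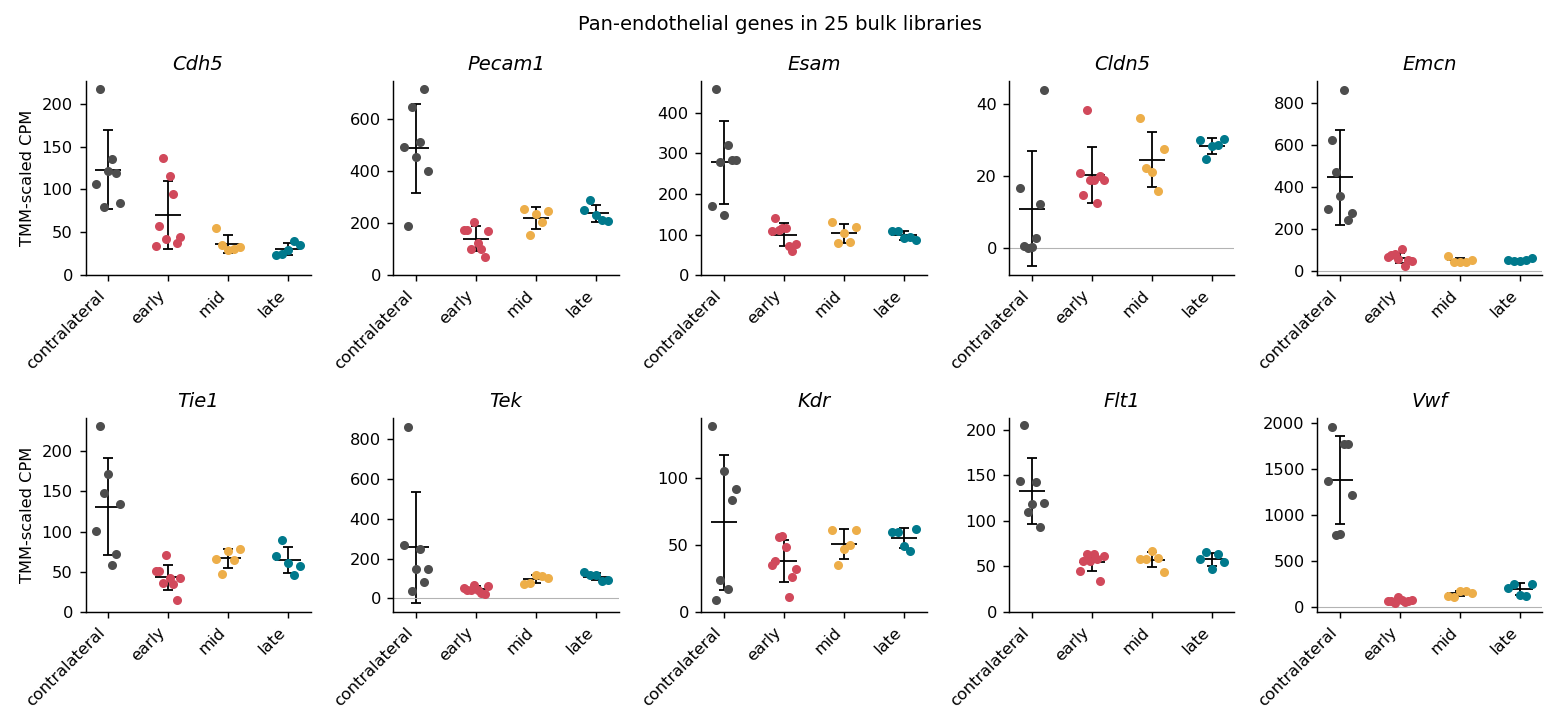
Level of each member (TMM-scaled CPM, linear axis of its own per gene) in every bulk library, with contralateral veins followed by the AVF groups in order of time, each point a vessel, and lines at the group mean ± SD. *Vwf* and *Emcn* show contralateral veins wholly above all AVFs, while *Cldn5* spreads from 0 to 43.9 CPM among contralateral veins.

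The member with the lowest log2 fold change in early AVFs was *Vwf*, which encodes von Willebrand factor, the multimeric glycoprotein that tethers platelets and is stored in Weibel-Palade bodies (chr6:125546774-125686679, plus strand of GRCm38). Its level was 785, 794, 1222, 1368, 1765, 1765, and 1959 CPM in the 7 contralateral veins, and 45.5, 54.9, 65.7, 67, 71, 76, 81.6, and 113 CPM in the 8 early AVFs. It was 115, 125, 158, 175, and 180 CPM in mid and 121, 131, 214, 249, and 255 CPM in late AVFs. The ranges of contralateral veins and AVFs were far apart, and every mid and late AVF also lay above every early AVF. Early AVFs were 19.2-fold lower (log2 fold change −4.26, SE 0.26, edgeR adjusted *p* = 1.04e-11). The decrease was −3.20 at the mid time point (SE 0.30, adjusted *p* = 5.62e-08) and −2.83 at the late one (SE 0.29, adjusted *p* = 4.67e-07), where *Emcn* lay lower still.

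*Vwf* was also the only member called between AVF time points. Late AVFs were 2.70-fold higher than early AVFs (log2 fold change 1.43, SE 0.25, edgeR adjusted *p* = 0.00228), where 0.726% of tested genes were called higher, but the call was lost without late AVF 16 or late AVF 17 or in female mice alone. The mid AVFs gave 1.07 against early AVFs (SE 0.25, adjusted *p* = 0.0156), short of the threshold, and 0 members were called there, while 1 gene of all those tested was (0.00789%). At an unadjusted *p* under 0.05 in edgeR, *Vwf*, *Pecam1*, and *Tek* were higher and *Cdh5* was lower in mid than in early AVFs. The share of all tested genes at that threshold was not counted, so this is not read as a result about the members. Late and mid AVFs differed in 0 members and 0 of all tested genes in edgeR, with 0 members at an unadjusted *p* under 0.05, and DESeq2 also called 0 members.

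Of the junction and surface genes, *Cdh5* encodes VE-cadherin, the adhesion molecule of endothelial adherens junctions (chr8:104101625-104144511, plus strand). It measured 78.9, 83.8, 107, 119, 121, 135, and 217 CPM in contralateral veins, and 33.6, 37.1, 42.6, 44.3, 57.5, 95, 115, and 137 CPM in early AVFs. Early AVFs thus fell into 5 libraries below every contralateral vein and 3 inside their range. The early difference was −0.81 (SE 0.31, edgeR adjusted *p* = 0.0603) and was not called. The 3 early AVFs inside the range (AVF 3, 5, and 6) also had the highest summed levels of platelet markers among early AVFs, 4154, 9463, and 12762 CPM, against 401 to 2677 CPM in the other early AVFs and 268 to 595 CPM in contralateral veins. They also had the highest summed neutrophil markers, 2373, 3394, and 4523 CPM, against at most 1537 CPM in the other early AVFs. The same 3 AVFs had the highest early sums of monocyte and macrophage markers (26217 to 30920 CPM, against at most 24864), erythrocyte markers (5897 to 12228 CPM, against at most 2860), storage granule genes, and endothelial transcription factors (567 to 639 CPM, against at most 503). The part of these cells in the *Cdh5* level was not tested. Among early single cells, *Cdh5* stood at 9.20 CPM in platelet-like cells (exact Poisson 1.11 to 33.2, median depth 688 UMIs), 1.22 in neutrophil-like cells (0.333 to 3.12, 3463 UMIs), and 1036 in endothelial-like cells (957 to 1119, 11012 UMIs). These levels leave out erythroid-like cells and monocyte or macrophage-like cells, the latter with 52.6% of the UMIs of early cells. *Cdh5* then measured 29.8 to 55.3 CPM in mid and 23.5 to 40.1 CPM in late AVFs, below every contralateral vein. It was called at both times, with log2 fold changes of −1.75 (SE 0.37, edgeR adjusted *p* = 0.00194) and −2.01 (SE 0.37, adjusted *p* = 0.000722).

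*Emcn* encodes endomucin, a sialomucin of venous and capillary endothelium that limits leukocyte adhesion (chr3:137341067-137432185, plus strand). It measured 240, 278, 296, 360, 470, 624, and 865 CPM in contralateral veins, and 21.4, 44.5, 50.3, 56.9, 64.9, 75.2, 80.0, and 102 CPM in early AVFs. Mid AVFs held 41.1 to 69.0 CPM and late AVFs 46.0 to 61.8 CPM. No AVF came near the lowest vein, and the AVF groups overlapped one another. The log2 fold changes were −2.85 in early (SE 0.29, edgeR adjusted *p* = 7.65e-08), −3.16 at the mid time point (SE 0.36, adjusted *p* = 9.69e-07), and −3.11 at the late one (SE 0.36, adjusted *p* = 1.78e-06). The early decrease was 7.23-fold.

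*Esam*, an immunoglobulin-family adhesion molecule of tight junctions that platelets also carry (chr9:37528078-37538319, plus strand), measured 149, 170, 279, 283, 284, 320, and 458 CPM in contralateral veins. It measured 59.0 to 140 CPM in early, 78.2 to 131 in mid, and 85.9 to 109 in late AVFs. All AVFs lay below all veins, and the 3 AVF groups shared 1 range. The log2 fold changes were −1.47 (SE 0.23, edgeR adjusted *p* = 2.66e-05), −1.44 (SE 0.27, adjusted *p* = 0.000554), and −1.50 (SE 0.27, adjusted *p* = 0.000444).

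*Pecam1* encodes CD31, an adhesion receptor of endothelial contacts that platelets and leukocytes also express (chr11:106654217-106750628, minus strand). It measured 189 CPM in contralateral vein 28 and 398, 452, 491, 510, 646, and 711 CPM in the other contralateral veins. Early AVFs held 69.4 to 205 CPM, mid AVFs 152 to 254, and late AVFs 206 to 286. Vein 28 fell among the AVFs, and the other 6 veins lay above all of them. The decrease was called in early (log2 fold change −1.80, SE 0.25, edgeR adjusted *p* = 4.82e-06) and mid AVFs (−1.15, SE 0.28, adjusted *p* = 0.00685). It was not called in late AVFs (−1.04, adjusted *p* = 0.0155). Neither outcome was firm: the mid call was lost in 13 of the 25 fits that left out 1 library, and the late value was called without vein 28 (−1.15).

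*Cldn5* encodes claudin-5, a strand-forming protein of endothelial tight junctions (chr16:18776847-18778262, plus strand). It measured 0, 0.136, 0.375, 2.59, 12.1, 16.7, and 43.9 CPM in contralateral veins, 12.3 to 38.3 CPM in early, 15.8 to 35.9 in mid, and 24.7 to 30.2 in late AVFs. The veins spanned the whole range of the AVFs and went below it. The log2 fold changes were positive, 0.90 (SE 0.83, edgeR adjusted *p* = 0.480), 1.17 (adjusted *p* = 0.461), and 1.38 (adjusted *p* = 0.375), and none was called. Without contralateral vein 633 the values were 1.93, 2.20, and 2.41.

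Of the receptor tyrosine kinases, *Flt1* encodes VEGFR1, a high-affinity receptor and decoy for VEGF-A (chr5:147561604-147726011, minus strand). It measured 92.7, 109, 119, 119, 143, 144, and 205 CPM in contralateral veins. It measured 34.2 to 63.9 CPM in early, 43.9 to 66.8 in mid, and 47.4 to 65.8 in late AVFs, with no overlap with the veins. The log2 fold changes were −1.28 (SE 0.20, edgeR adjusted *p* = 3.13e-05), −1.21 (SE 0.23, adjusted *p* = 0.000768), and −1.20 (SE 0.23, adjusted *p* = 0.00107). The mid and late calls were lost with upper-quartile scaling, where both values were −0.90, and when only the 2 groups compared were fitted, and all 3 were lost in female mice alone. *Kdr* encodes VEGFR2, the main signaling receptor for VEGF-A (chr5:75932827-75978458, minus strand). It measured 8.75, 16.7, 23.6, 83.2, 91.5, 105, and 138 CPM in contralateral veins, and 11 to 56.3, 34.6 to 60.7, and 45.5 to 61.9 CPM in early, mid, and late AVFs. The veins formed a low set of 3 and a high set of 4 around the AVFs, and no comparison was called (log2 fold changes −0.82, −0.40, and −0.27, edgeR adjusted *p* = 0.183, 0.676, and 0.788). Without vein 27 the mid and late values were −0.05 and 0.075.

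*Tek* encodes TIE2, the receptor for angiopoietins (chr4:94739289-94874976, plus strand). It measured 37.3, 83.0, 146, 147, 249, and 270 CPM in 6 contralateral veins and 862 CPM in vein 28. Early AVFs held 24.1 to 68.7 CPM, mid AVFs 74.4 to 119, and late AVFs 87.4 to 131. All mid and late AVFs lay above all early AVFs, and vein 28 lay far above every other vessel. *Tek* was called in early AVFs (log2 fold change −2.49, SE 0.42, edgeR adjusted *p* = 9.64e-05) and kept that call without vein 28, although the value moved to −1.74. The mid and late differences, −1.41 (adjusted *p* = 0.0542) and −1.23 (adjusted *p* = 0.0997), were not called, and without vein 28 they were −0.67 and −0.48. Late AVFs exceeded early AVFs by 1.26 (SE 0.44, adjusted *p* = 0.0929), which was not called. *Tie1* encodes the related receptor that modulates TIE2 (chr4:118471191-118490061, minus strand). It measured 57.9 to 231 CPM in contralateral veins (median 135), 15.1 to 70.4 in early, 47.1 to 78.8 in mid, and 46.3 to 89.3 in late AVFs. The lowest veins overlapped the AVFs. *Tie1* was called in early AVFs (−1.61, SE 0.29, adjusted *p* = 0.000216) and not in mid (−0.98, adjusted *p* = 0.0578) or late AVFs (−1.01, adjusted *p* = 0.0516).

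**Figure D2:**
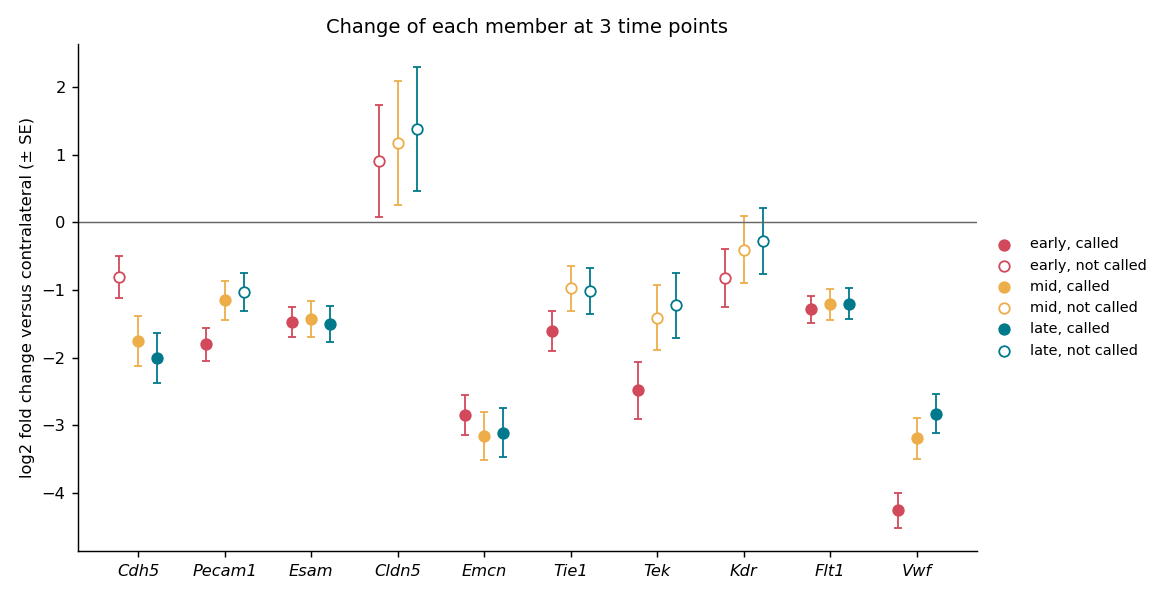
Log2 fold change of each member against contralateral veins at the early, mid, and late time points, with standard errors derived from edgeR's quasi-likelihood F statistic, filled circles for called values, and open circles for values not called. *Vwf* lies lowest in early AVFs at −4.26 and *Cldn5* is the one member above 0 at all 3 time points.

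Groups that did not overlap at all were counted as well. Early AVFs lay wholly below contralateral veins for 4 members, *Vwf*, *Emcn*, *Esam*, and *Flt1*, where 2.34% of tested genes did so. These 4 and *Cdh5* made 5 members in mid AVFs (4.69% of tested genes) and the same 5 in late AVFs (4.25%). Between AVF groups, *Vwf*, *Pecam1*, and *Tek* lay wholly higher in late than in early AVFs (7.16% of tested genes), and *Vwf* and *Tek* did so in mid against early AVFs (3.31%).

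Levels divided by exon length in kilobases allow the genes to be ordered. In contralateral veins the mean was 96.8 ± 35.5 CPM per kb for *Esam* (SD, n = 7), 85.9 ± 29.6 for *Vwf*, 82.8 ± 41.9 for *Emcn*, and 77.9 ± 27.3 for *Pecam1*. These 4 neighbors in the order did not differ beyond their spread. *Tek* followed at 54.4 ± 59.4, then *Cdh5* at 29.3 ± 10.9, *Tie1* at 26.6 ± 12.2, *Flt1* at 9.85 ± 2.69, *Cldn5* at 7.65 ± 11.3, and *Kdr* at 7.38 ± 5.56 CPM per kb. In early AVFs, *Esam* remained first at 34.9 ± 9.57 (SD, n = 8), followed by *Pecam1* at 22.3 ± 7.70 and *Cdh5* at 16.7 ± 9.49 CPM per kb. *Vwf*, second in contralateral veins, had 4.48 ± 1.26 CPM per kb in early AVFs, close to *Kdr* at 4.18 ± 1.71 and *Flt1* at 4.05 ± 0.763. In late AVFs *Vwf* stood at 12.1 ± 3.99 CPM per kb (SD, n = 5), near *Tie1* at 13.2 ± 3.27.

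If all members had moved by the same factor, their ratios would have stayed fixed, so each was divided by *Cdh5* in the same library. The log2 ratio of *Vwf* to *Cdh5* ran from 2.71 to 3.89 in contralateral veins (median 3.68) and from −1.59 to 1.41 in early AVFs (median 0.55). Mid AVFs spanned 1.17 to 2.59 (median 2.27) and late AVFs 1.60 to 3.35 (median 2.85). Early and mid AVFs lay below every vein, and late AVFs overlapped the veins. The log2 ratio of *Emcn* to *Cdh5* showed the same order of groups against the veins, 1.01 to 2.68 in veins and −2.15 to 0.95, 0.23 to 0.71, and 0.36 to 1.17 in the AVFs from early to late. *Vwf* and *Emcn* were the 2 members whose ratio lay wholly below the veins in early and in mid AVFs, as did 0.481% and 0.276% of tested genes. Because *Cdh5* itself was lower in mid and late AVFs, many genes had higher ratios there: 37.7% of tested genes lay wholly above the veins in mid AVFs, *Cldn5* among them, and 54% did in late AVFs, *Cldn5* and *Flt1* among them. In late against early AVFs, 5 members (*Vwf*, *Pecam1*, *Tek*, *Flt1*, and *Cldn5*) had wholly higher ratios, with 15.9% of tested genes.

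**Figure D3:**
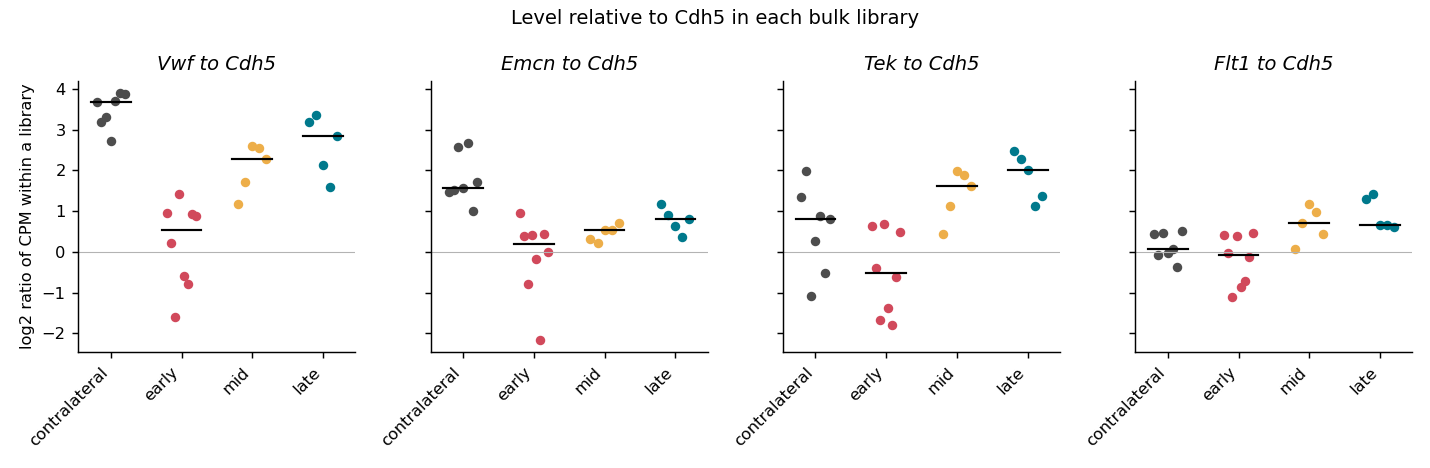
Log2 ratio of *Vwf*, *Emcn*, *Tek*, and *Flt1* to *Cdh5* within each bulk library, by group, with each point a vessel and bars at group medians. For *Vwf* the medians from contralateral veins to late AVFs are 3.68, 0.55, 2.27, and 2.85.

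Across the 25 libraries, *Emcn* and *Esam* were the most alike pair (Pearson r = 0.90 of log2 CPM), followed by *Flt1* with *Emcn* (0.88) and *Vwf* with *Flt1* (0.86). *Cldn5* was farthest from *Emcn* (r = −0.68), and no member came closer to *Kdr* than *Pecam1* (0.38). These are descriptions over libraries that share the shift between veins and AVFs. After group means were removed, *Emcn* and *Esam* had r = 0.58 and *Tek* and *Flt1* 0.65. The other tested gene closest to the mean of the members' scaled levels over the same 25 libraries was *Adgrf5* (r = 0.96). Next came *Tinagl1*, *Cald1*, *Cav1*, *Mmrn2*, *Cdc42ep3*, *Myh11*, and *Ptprb* (r = 0.92). *Myh11* encodes a smooth muscle myosin, so the list is not limited to endothelial genes, and which cells express the others was not tested.

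Sex did not pass as a modifier of the early decrease for any member: 0 of 10 had an adjusted *p* under 0.05 for the interaction in edgeR, where 0.45% of tested genes did. The 2 members with an unadjusted *p* under 0.05 are given next, and the share of all tested genes at that threshold was not counted. *Emcn* had log2 fold changes of −3.76 in females and −1.77 in males (interaction unadjusted *p* = 0.00117, edgeR adjusted *p* = 0.138). *Tek* had −3.05 and −1.19 (unadjusted *p* = 0.0485, adjusted *p* = 0.573). Only 2 contralateral veins were male. Without contralateral vein 27, 2 members passed.

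Other endothelial genes gave mixed counts, to be read against 6.45% of all tested genes called lower and 6.17% called higher in early AVFs. Of 22 other endothelial-restricted genes, 9 were lower and 1 was higher in early AVFs, with a median log2 fold change of −1.43. *Plvap*, the diaphragm protein of fenestrae and caveolae, fell by 3.55 on the log2 scale (SE 0.43, edgeR adjusted *p* = 8.02e-07). *Ptprb*, the phosphatase VE-PTP that acts on TIE2 and VE-cadherin, had −3.09 and *Egfl7*, a secreted vascular factor, −2.82. Of 14 endothelial transcription factors tested, 2 were lower, *Gata2* (−2.29) and *Lmo2* (−1.11), with a median of −0.30. Of 13 junction partners tested, 3 were lower, *Ptprb*, the adhesion molecule gene *Jam2* (−1.64), and *Ctnna1* for α-catenin (−1.14), with a median of −0.76. In late AVFs these 3 lists had 6, 0, and 1 genes lower and 0 higher, where 2.85% of all tested genes were called lower. *Ptprb* (−2.21 in late AVFs) is on both the endothelial-restricted and the junction list, so it is counted in both.

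Ligands of the member receptors were measured in the same tissue. Of 10, 2 were lower in early AVFs: *Angpt1*, the activating ligand of TIE2 (log2 fold change −2.39, SE 0.57, edgeR adjusted *p* = 0.00297), and *Vegfd* (−1.76, SE 0.39, adjusted *p* = 0.00175). In mid and late AVFs 0 of 10 were called, with *Angpt1* at −1.21 and −0.65. Genes of the storage granules that hold von Willebrand factor were divided, with 3 of 10 higher and 2 lower in early AVFs. *Edn1*, which encodes endothelin-1, was at −1.97 (adjusted *p* = 0.00365) and *Rab27a*, a granule GTPase, at −1.88 (adjusted *p* = 0.00981). *Unc13d*, which primes granules for release and is strong in leukocytes, rose by 5.15 (adjusted *p* = 0.000241).

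Markers of other cells moved in the same libraries, where 6.45% of all tested genes were called lower and 6.17% higher in early AVFs. Smooth muscle and pericyte markers were lower in 8 of 10 in early AVFs, with *Myh11* at −5.26 and a summed level of 1166 to 2798 CPM, against 9877 to 21218 CPM in contralateral veins. Platelets, which also contain *Vwf* RNA, gave 2 of 7 tested markers higher, *Gp9* (5.02) and *Pf4* (3.41). Monocyte and macrophage markers were higher in 7 of 8 and neutrophil markers in 6 of 7. Fibroblast markers were lower in 3 of 8, capillary endothelial markers in 2 of 7, and erythrocyte markers in 1 of 5. Skeletal muscle markers were higher in 7 of 7, and thyroid and parathyroid markers were called in 0 of 2 tested. Of 5 adipocyte markers, 1 (*Ucp1*) was higher, with overlapping groups. Summed adipocyte markers went the other way, with medians of 1008 CPM in contralateral veins (239 to 2059) and 323 CPM in early AVFs (0.923 to 2096). Mid and late AVFs had adipocyte medians of 244 and 222 CPM. Summed capillary endothelial markers had medians of 4793 CPM in contralateral veins (2540 to 6243) and 1556 CPM in early AVFs (800 to 6406). Lymphatic endothelial markers gave 1 higher and 2 lower of 8 in early AVFs, and in late against early AVFs 1 was higher, *Mmrn1* (3.48, SE 0.80, edgeR adjusted *p* = 0.00711). The part of these cells in the members' bulk levels was not tested.

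The single-cell libraries show which cells held the members' RNA. Of 26438 barcodes, 16893 passed the limits on genes and mitochondrial counts, 6319 from contralateral veins, 4753 from early, and 5821 from late AVFs, with median depths of 2751, 8951, and 15425 UMIs. The libraries shared 14 to 19 barcodes in pairs. With 1 library per condition there was no test, and intervals (95%) cover counting error only. Cells were clustered without the 10 members and without the naming markers. A cluster of 965 cells with endothelial markers was divided again. A lymphatic endothelial-like subcluster of 136 contralateral, 8 early, and 53 late cells was kept apart. Subclusters with more naming markers of another cell type than of endothelium among their 10 leading genes, with 335, 10, and 3 cells, were left unnamed. The largest of these, subcluster 2, held 176 contralateral cells at a median depth of 1264 UMIs, with *Gm10800* and *Gm10801* first and 1 such marker. It shared *Unc5c* and *Gria3* with the leading genes of the endothelial-like subcluster 1 and had 1953 CPM of *Vwf*. The remaining endothelial-like cells numbered 340 in contralateral veins (5.38% of cells, exact binomial 4.84 to 5.97), 53 in early (1.12%, 0.836 to 1.46), and 27 in late AVFs (0.464%, 0.306 to 0.674). The whole cluster held 811, 71, and 83 cells, or 12.8%, 1.49%, and 1.43%. At a clustering resolution of 1.0, unnamed subclusters took 60 of the 71 early cells of this cluster. Of the 83 late cells, 38 were then unnamed and 44 lymphatic endothelial-like, leaving 0.147% early and 0.0172% late endothelial-like cells. Vessels were digested and pooled, so these shares describe the suspensions. The 4 subclusters named endothelial-like had 13 or 14 of the 14 naming markers in at least 10% of their cells. The lymphatic endothelial-like subcluster also had 13, and the unnamed ones had 13, 11, and 9, so this count does not set the named ones apart.

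Endothelial-like cells of AVFs held less *Vwf* RNA. The level was 2723 CPM in contralateral, 298 in early, and 442 in late cells. The early to contralateral ratio was 0.11 (0.094 to 0.13) and the late one 0.16 (0.13 to 0.20). With no upper limit on genes and no mitochondrial limit the levels were 2782, 72.5, and 129 CPM. A *Vwf* UMI was seen in 79.7%, 45.3%, and 44.4% of endothelial-like cells, at median depths of 4282.5, 11012, and 8233 UMIs, and in 4.63%, 1.71%, and 0.613% of fibroblast-like cells, which should lack the gene, at 4420.5, 31877, and 25062 UMIs.

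*Cdh5* differed from *Vwf* in these cells. It had 1022 CPM in contralateral and 1036 in early cells, a ratio of 1.01 (0.93 to 1.11), and 584 CPM in late cells, a ratio of 0.57 (0.48 to 0.67). The late value depended on the limits, with 1033 CPM when no upper or mitochondrial limit was set. In the broader set of cells with at least 3 UMIs of naming markers, *Cdh5* had 628, 88.6, and 18.3 CPM. That rule counts raw UMIs, so the deeper cells of AVFs pass it more easily. Early ratios to contralateral cells were 0.40 for *Emcn* (0.35 to 0.45), 0.54 for *Flt1* (0.48 to 0.61), 0.55 for *Tek* (0.44 to 0.68), 0.70 for *Pecam1* (0.65 to 0.75), and 0.80 for *Esam* (0.71 to 0.90). The intervals of *Kdr* (0.93, 0.79 to 1.09) and *Tie1* (1.04, 0.89 to 1.21) included 1, and *Cldn5* was at 1.31 (1.14 to 1.52). In late cells the ratios ran from 0.16 for *Vwf* to 0.95 for *Cldn5*. *Vwf* and *Emcn* were higher in late than in early cells, by ratios of 1.48 (1.16 to 1.88) and 1.37 (1.11 to 1.70). Several of these ratios moved with the setting. With no upper or mitochondrial limit *Cldn5* was at 0.95 in early and 0.28 in late cells, as was *Kdr* at 0.99 and 0.28, and early *Tie1* was at 0.78. Over the whole endothelial cluster, lymphatic and unnamed cells included, late *Cldn5* was at 1.62, and *Vwf* and *Emcn* were lower in late than in early cells (0.83 and 0.93).

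**Figure D4:**
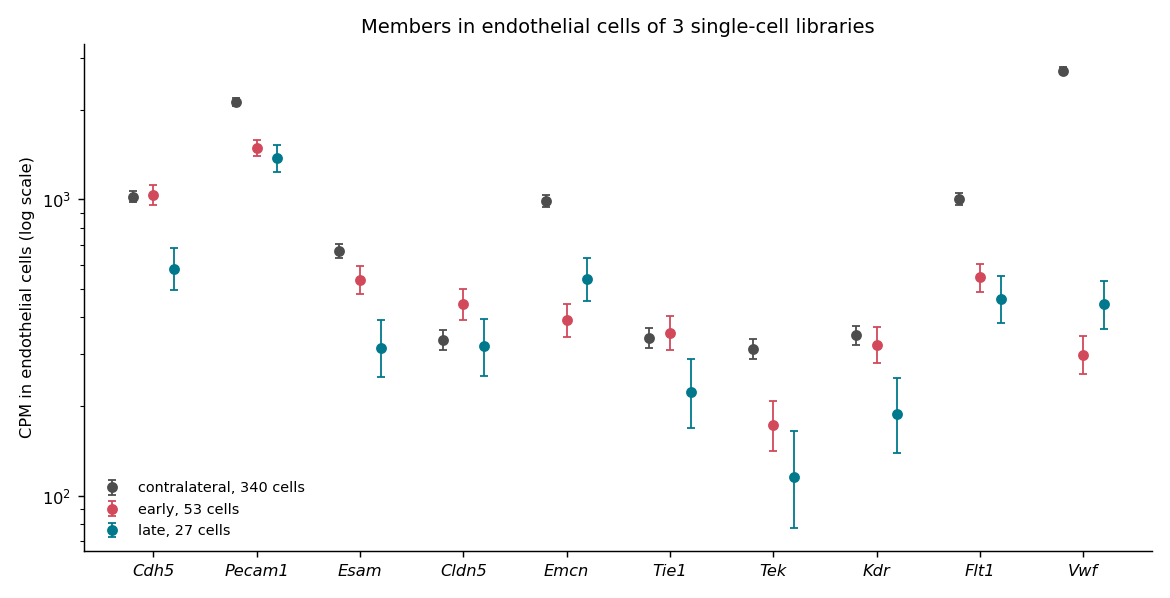
Level of each member (CPM, log axis) in endothelial-like cells of the contralateral, early AVF, and late AVF libraries, with exact Poisson intervals at 95%, which cover counting error only. *Vwf* falls from 2723 to 298 CPM between the contralateral and early libraries while *Cdh5* is at 1022 and 1036 CPM.

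The endothelial-like cells of the 3 libraries came from different subclusters. Subcluster 1, led by *Olr1*, *Unc5c*, and *Vwf*, held 182 of the 340 contralateral cells and no AVF cell, and had 4321 CPM of *Vwf*. Subcluster 4, led by *Prnd*, *Col15a1*, *Nes*, and *Selp*, held 64 contralateral, 30 early, and 24 late cells. Within subcluster 4, *Vwf* was still lower in AVF cells, at 1525 CPM in contralateral (1406 to 1652), 168 in early (128 to 216), and 194 in late cells (140 to 262), while *Cdh5* had 887, 1113, and 633 CPM. Subcluster 5, led by *Sema3g*, *Gkn3*, and *Gja5*, genes known from arterial endothelium, held 49, 16, and 3 cells, and its *Vwf* was 469 CPM in contralateral (392 to 556) and 551 CPM in early cells (454 to 663), with overlapping intervals. Subcluster 6, led by *Gpihbp1*, *Aqp7*, and *Rgcc*, genes of capillary endothelium, held 45, 7, and 0 cells and had 189 CPM of *Vwf* in contralateral cells. Smooth muscle or mural markers raised over the other subclusters numbered 4 in subcluster 5, 2 in subcluster 4, and 1 in subcluster 6.

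Cells other than the endothelial-like ones held part of the members' UMIs in every library. They include the lymphatic endothelial-like and unnamed cells of the same cluster. Endothelial-like cells held 6.51% of the UMIs of all genes in contralateral veins, 1.11% in early, and 0.264% in late AVFs. Of all UMIs of the 10 members, 69.2% lay in endothelial-like cells in contralateral veins (68.7 to 69.8), 61.0% in early (59.7 to 62.3), and 18.3% in late AVFs (17.4 to 19.3). With no upper or mitochondrial limit these shares were 53.7%, 58.4%, and 50.9%, so the low late share did not hold at that setting. The limit of 6000 genes removed 26 contralateral, 841 early, and 588 late barcodes.

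*Tek* was the clearest case. In late AVFs, 1422 of its 1530 UMIs (92.9%, exact binomial 91.5 to 94.2) lay in fibroblast-like cells and 1.96% in endothelial-like cells, which held 7.46% with no upper or mitochondrial limit. Fibroblast-like cells held 28.2% of *Tek* UMIs in contralateral veins and 37.2% in early AVFs. A *Tek* UMI was seen in 9.37%, 11.7%, and 28.1% of fibroblast-like cells of the 3 libraries at median depths of 4420.5, 31877, and 25062 UMIs, and in 0.962%, 0.595%, and 0.532% of T/NK-like cells at 3573.5, 5620.5, and 6450.5 UMIs. The level in fibroblast-like cells was 25.4, 6.92, and 28.6 CPM.

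*Flt1* UMIs lay in smooth muscle or mural-like cells for 0.339% in contralateral veins, 38.7% in early, and 65.4% in late AVFs. A *Flt1* UMI was seen in 57.9% of early and 50.6% of late smooth muscle or mural-like cells, at 21364 and 25374 median UMIs, against 0.595% and 1.06% of T/NK-like cells. The contralateral library held 30 smooth muscle or mural-like cells, against 228 and 510 in the AVF libraries, while in bulk the contralateral veins had the higher smooth muscle markers. *Esam* UMIs in the same cells made up 2.13%, 20.4%, and 52.8% of the library total. These late shares rest on the cell limits: with no upper or mitochondrial limit, the late share in endothelial-like cells was 64.6% for *Esam*, against 19.9%, and 38.2% for *Flt1*, against 13.2%.

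Platelet-like cells held 5.50% of *Vwf* UMIs in contralateral veins, 42.0% in early, and 14.1% in late AVFs, at levels of 839, 1095, and 716 CPM. In early AVFs this was more than the 32.7% in endothelial-like cells. *Cldn5*, the member without a decrease in bulk, was mainly in lymphatic endothelial-like cells in contralateral veins (52.4% of UMIs, 1513 CPM) and late AVFs (73.5%, 1377 CPM), while in early AVFs 74.7% lay in endothelial-like cells (38.2% with no upper or mitochondrial limit). Lymphatic endothelial-like cells also held 31.5% of *Kdr* UMIs in contralateral veins and 31.2% in late AVFs. For *Cdh5*, *Emcn*, and *Tie1* the share in endothelial-like cells of early AVFs was 85.7%, 84.1%, and 87.0%.

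**Figure D5:**
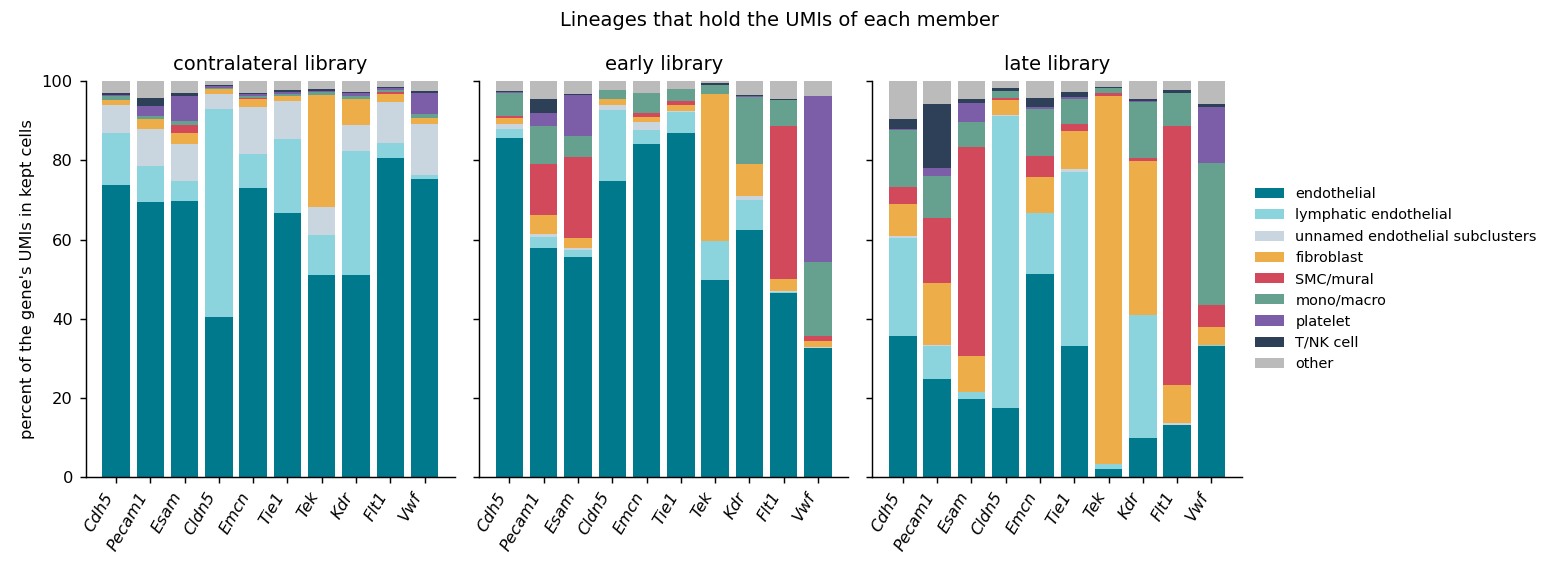
Share of each member's UMIs (percent of all its UMIs in kept cells) by cell lineage in the contralateral, early AVF, and late AVF libraries, with 1 stacked bar per gene. In late AVFs the bar of *Tek* is 92.9% fibroblast-like and that of *Flt1* 65.4% smooth muscle or mural-like, while in contralateral veins endothelial-like cells hold 51.1% and 80.7%.

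Summed over all kept cells of a library, each member was lower in AVFs. *Vwf* measured 236 CPM in contralateral, 10.1 in early, and 3.53 in late cells. *Cdh5* measured 90.3, 13.4, and 4.34 CPM and *Emcn* 88.1, 5.18, and 2.77 CPM. *Tek* was the member with a higher level in late (15.5 CPM) than in early AVF cells (3.85 CPM). In bulk, *Tek* was likewise wholly higher in late AVFs, but *Vwf* and *Pecam1* were too, and both went the other way here, with *Pecam1* at 28.6 CPM in early and 14.7 CPM in late cells.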

How the data were processed

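Bulk RNA was selected for poly(A), prepared with an ultra-low-input kit, and read in pairs. The authors deposited raw read counts per gene for 25 vessels, which the submitters' processing notes tie to STAR and to mm10 or GRCm38. The sources used here name no counter or annotation for them. Single cells were captured with 10x Genomics 3′ chemistry, and the deposited matrices hold UMI counts by barcode, written by Cell Ranger 6.0.2 according to their header. Low counts and pooled UMIs limit precision as stated beside each value.

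Identifiers were named from the single-cell gene lists (32210) or the reference annotation (19962). The 12673 genes whose DESeq2-normalized counts averaged 100 or more were fitted in edgeR 4.0.16 with TMM scaling, a mean per group over all 25 libraries, and the quasi-likelihood test. Exon lengths were taken from GENCODE M21. Barcodes were kept if they had between 200 and 6000 genes and no more than 10% mitochondrial counts, and were clustered (scanpy 1.11.5, leidenalg 0.10.2, 2000 variable genes, 12 components, 20 neighbors, resolution 0.5) without members or naming markers. The rule that leaves subclusters unnamed was revised after names had been seen. Scrublet marked 0 of 6319, 2 of 4753, and 120 of 5821 cells, so it had not worked in 2 libraries; it marked 0 endothelial-like cells, and no cell was removed.

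All 10 members are named, with up to 3 called genes of largest change per list and the 8 genes most like the members. Members and lists were chosen with earlier results of these data known. In simulated counts for early against contralateral (12673 genes), edgeR called 29.3% of genes changed by 2 and 48.5% of those changed by 3 on the log2 scale, all with the right sign. The changed genes were drawn at random from all tested genes, so many changes of this size would be missed among tested genes at large. The recovery for the 10 members, whose spread can differ, was not simulated. Motifs were searched as GGAA on both strands. Groups come from the labels, and 0 columns were left unmapped. Alternatives covered scaling, filters, tools, thresholds, sex, single libraries left out, cell limits, and clustering.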

Additional observations from a re-analysis of the deposited data

Results flagged for a closer look

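In 5 of the 40 combinations of a member and a bulk group, the highest library stood further from its neighbor than Dixon's test allows at 95%; chance alone flags about 1 in 20 groups. Contralateral vein 28 had 216.7 CPM of *Cdh5*, where the next vein had 135, and 862 CPM of *Tek*, where the next had 270; the same vein had the lowest *Pecam1* and *Kdr* of its group. Contralateral vein 633 had 43.9 CPM of *Cldn5*, where the next vein had 16.7. Early AVF 3 had 38.3 CPM of *Cldn5*, where the next had 20.8. Mid AVF 9 had 55.3 CPM of *Cdh5*, where the next had 35.2.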

How the results depend on the processing

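No paired analysis was possible because the bulk groups share no replicate numbers in the labels. Counts of called members in the 3 comparisons with contralateral veins stayed within 1.5 times of the stated ones under the other scalings, filters, and tools, except in female mice alone (3 early, 2 mid, 2 late, and 2 for the 4 groups together) and, for mid AVFs, when only the 2 groups compared were fitted (3). In late against early AVFs the count was 2 at an adjusted *p* under 0.05 and with only the 2 groups fitted, and 0 in female mice alone. In mid against early AVFs it was 1 at an adjusted *p* under 0.05, with DESeq2, and with edgeR's likelihood ratio test. Leaving out 1 library at a time gave 7 to 7 members in early, 5 to 6 in mid, and 5 to 6 in late AVFs against contralateral veins, 0 to 1 in late against early, 0 to 1 in mid against early (1 without early AVF 4), 0 to 0 in late against mid, 8 to 8 for the 4 groups together, and 0 to 2 for the sex difference. Upper-quartile scaling shifted the median of all tested genes in early AVFs to 0.22. Values near 0 changed sign: *Esam* in late against early AVFs was −0.03 and became 0.049 with filterByExpr, 0.0069 with no filter, 0.056 with sex as a term, and 0.56 in female mice alone, with a range of −0.11 to 0.14 over single libraries left out. *Emcn* in the same comparison was −0.26 and became 0.31 in female mice alone, and *Kdr* in late AVFs against contralateral veins ran from −0.50 to 0.075, positive without contralateral vein 27. *Pecam1* in mid AVFs lost its call in 13 of the 25 fits without 1 library. The alternatives for single members in mid against early and in late against mid AVFs were not run. The cause of these changes was not tested.

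For single cells, omitting the upper and mitochondrial limits gave endothelial-like shares of 3.76% (contralateral) and 0.693% (late), summed member levels of 9707 (contralateral) and 4616 CPM (early), against 9879 and 5591, and member UMI shares of 53.7%, 58.4%, and 50.9%. Resolution 1.0 gave shares of 0.147% (early) and 0.0172% (late), a level of 10264 CPM (contralateral), and UMI shares of 63.0%, 8.29%, and 0.385%. Cells with at least 3 UMIs of naming markers made up 12.1%, 5.95%, and 9.72%, with levels of 6178, 559, and 183 CPM and UMI shares of 89.6%, 74.2%, and 43.4%. This rule takes no account of depth, and the median depths were 2751, 8951, and 15425 UMIs. Its values are therefore not comparable between libraries. With unnamed subclusters included, an alternative chosen after seeing the data, contralateral cells made up 10.7%, with 8896 CPM and 79.0% of UMIs. The whole cluster, also chosen after seeing the data, gave 12.8%, 1.49%, and 1.43%, levels of 8223 (contralateral) and 4016 CPM (late), and UMI shares of 89.6%, 65.4%, and 32.0%.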
